A study of Homo sapiens with 8 samples.

Results

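The ABC drug efflux transporters are membrane pumps that use ATP to move drugs, drug conjugates and lipids out of the cytoplasm. The set held 10 genes, ABCB1, ABCB4, ABCC1, ABCC2, ABCC3, ABCC4, ABCC5, ABCC6, ABCG2 and ABCA2, and all probes that the array annotation names for them. Of the 10 genes, 8 had a probe, 13 probes in all among 48107, and ABCC1 and ABCC6 were not analysed here. Their levels were read on 8 Illumina arrays of A204 cells, a cell line established from a malignant rhabdoid tumor (MRT), in which the SWI/SNF subunit SMARCB1 is lost. Each of the sublines DasR, PazR and SunR, selected in stepwise rising doses of the tyrosine kinase inhibitors (TKIs) dasatinib, pazopanib or sunitinib until resistant, was measured once, in 5 µM of its own TKI. Parental A204 cells in 5 µM dasatinib, pazopanib or sunitinib had 1 array for each drug, and parental cells with no drug had 2 arrays, called untreated replicates 1 and 2. The labels give these cells as without drug, while a legend of the study speaks of a DMSO control, so whether they had vehicle is not settled for any comparison with untreated cells. How long the treated parental cells were in drug, whether a subline was a clone and whether replicates were separate cultures is not given in the sources used here. P-values therefore measure the spread between these arrays, which within a group in TKI includes differences between drugs.

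P-glycoprotein (ABCB1) and the breast cancer resistance protein (ABCG2) are the pumps best known for keeping kinase inhibitors out of cells, and all 3 drugs are counted among the compounds they handle. The ABCC genes encode multidrug resistance proteins (MRPs), which export drugs coupled to glutathione, glucuronate or sulfate and other organic anions. ABCA2 belongs to another branch, sits in late endosomes and lysosomes, takes part in lipid and sterol traffic, and has been linked to resistance to estramustine. A gain of such a pump is a textbook route to drug resistance, so the levels in the sublines were set against those in parental cells with and without the same drugs.

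Values are log2 intensities after quantile normalization, so that a difference of 1 is a doubling, and every array had a median of 6.67. A probe was called above background on an array where it exceeded the 95th percentile of 455 probes of olfactory receptor genes, which are silent in most tissues. This limit lay between 6.72 and 6.82, and 15464 probes exceeded it on all 8 arrays. By that measure 7 of the 13 transporter probes, from 5 genes (ABCC2, ABCC3, ABCC4, ABCC5 and ABCA2), were above background on all 8 arrays, 1 ABCB1 probe was above it on 1 array, and 5 probes were above it on none. The brighter probe of SMARCB1, the gene lost in these cells, read 6.66 to 6.93 and was above the limit on 6 of the 8 arrays. A reading just above the limit is therefore not taken as expression. VIM, or vimentin, of mesenchymal cells read 14.24 to 14.67. Of the markers of other cell types, PTPRC (6.46 to 6.68) and CD3E of leukocytes, PECAM1 (6.44 to 6.69) and CDH5 of endothelial cells and CDH1 (6.37 to 6.53) of epithelial cells were above background on none of the 8 arrays. Others of the same cell types were dim but passed the limit on some arrays, namely CD14 of monocytes on 5 (6.62 to 7.07), EPCAM of epithelial cells on 4 (6.55 to 6.89) and VWF of endothelial cells on 1 (6.24 to 7.12). ALB, a hepatocyte gene, read 7.14 to 7.70 with no group apart and passed the limit on all 8 arrays, while APOA1 read 6.32 to 6.68 and passed it on none. Passing the limit on all arrays is thus not by itself taken as expression.

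**Figure D1:**
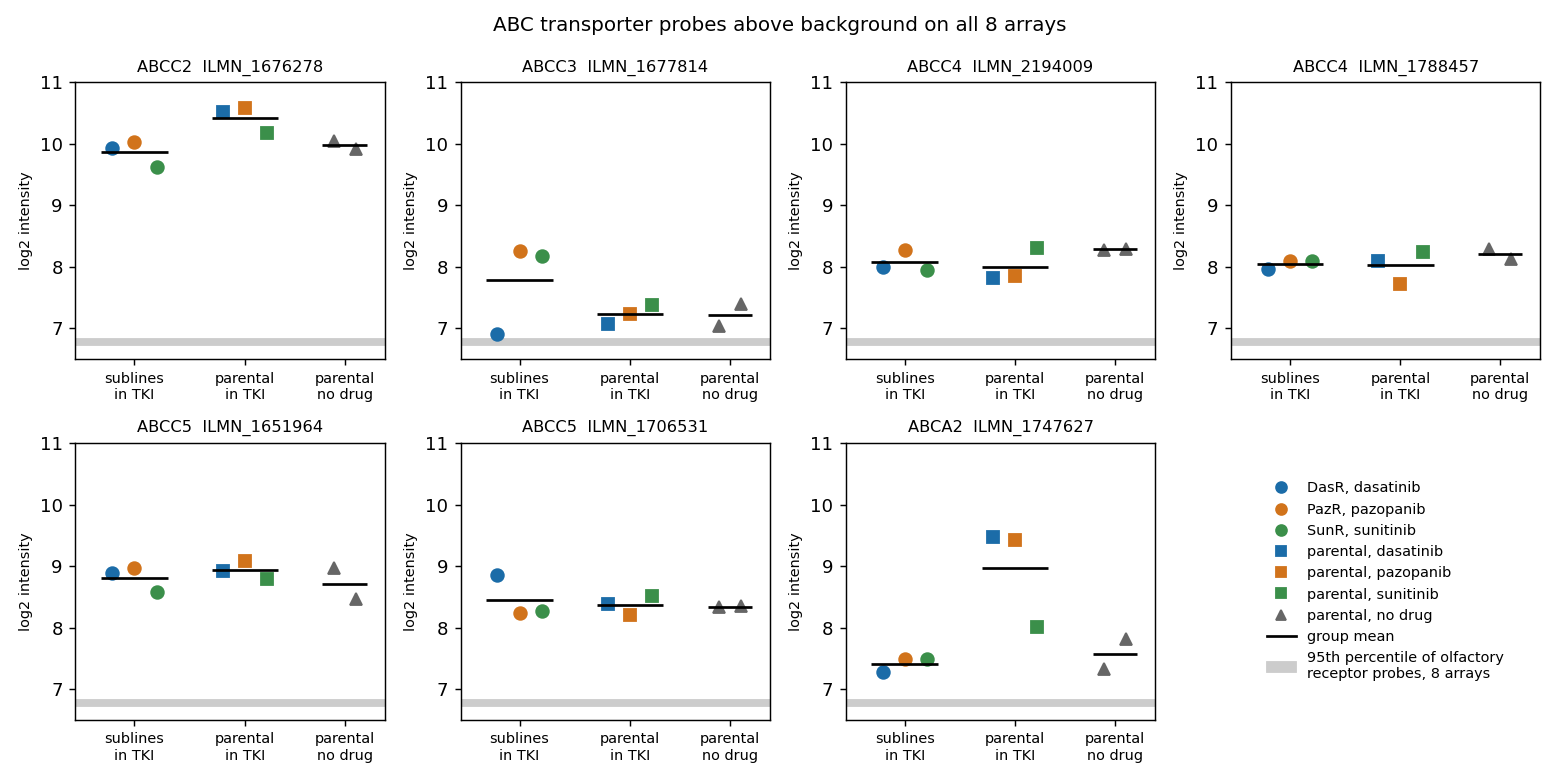
Log2 intensity (vertical axis) of the 7 transporter probes above background on all 8 arrays, by group, with 1 point per array, the color giving the drug and the line the group mean. ABCA2 stands at 9.48 and 9.42 in parental cells in dasatinib and pazopanib and at 7.28 to 7.48 in the sublines, and ABCC3 stands at 8.25 in PazR and 8.18 in SunR but at 6.90 in DasR.

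The pumps best known for TKI efflux gave no signal that could be told from silent genes in the sublines. The brighter ABCB1 probe (ILMN_1812070) read 6.45 in DasR, 6.59 in PazR and 6.47 in SunR, against 6.80, 6.60 and 6.41 in parental cells in dasatinib, pazopanib and sunitinib, and 6.54 and 6.48 in untreated replicates 1 and 2. Only the parental array in dasatinib passed the background limit, by 6.80 against 6.78. The 3 groups overlapped, and the sublines differed from treated parental cells by -0.10 (95% interval -0.30 to 0.11, limma adjusted p = 0.626). A second ABCB1 probe (ILMN_2094875) lay between 6.21 and 6.31 on every array. ABCG2 (ILMN_1789641) read 6.40, 6.32 and 6.43 in DasR, PazR and SunR, against 6.33, 6.38 and 6.47 in parental cells in dasatinib, pazopanib and sunitinib and 6.38 and 6.31 in the untreated replicates. Its difference between sublines and treated parental cells was -0.01 (95% interval -0.14 to 0.12, adjusted p = 0.961). ABCB4, which moves phosphatidylcholine into bile in the liver, read 6.34 to 6.54 in the sublines, 6.36 to 6.46 in treated parental cells and 6.36 to 6.52 in untreated cells. These probes do not show whether a low amount of the mRNAs was present, and a change that stays below the background limit could not be seen.

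ABCC2, or MRP2, exports glutathione and glucuronide conjugates at the apical face of liver, kidney and gut cells. It read 9.93 in DasR, 10.03 in PazR and 9.62 in SunR, against 10.51, 10.58 and 10.18 in parental cells in dasatinib, pazopanib and sunitinib, and 10.05 and 9.92 in untreated replicates 1 and 2. All 3 sublines lay below all 3 treated parental arrays, as was so for 13% of all probes. Each lay below the parental array of its own drug by nearly the same amount, with differences of -0.58 for dasatinib and -0.55 for pazopanib and for sunitinib. The mean difference was -0.56 (SE 0.23, n = 3 and 3, 95% interval -1.06 to -0.06), which did not pass after adjustment (limma, adjusted p = 0.190). Parental cells in TKI averaged 10.42 ± 0.22 (SD, n = 3) and untreated cells 9.99 ± 0.10 (SD, n = 2), a difference of 0.44 that did not pass either (adjusted p = 0.516). In the sublines the mean was 9.86 ± 0.21 (SD, n = 3), which differed from that of untreated cells by -0.12 (95% interval -0.67 to 0.43, adjusted p = 0.950).

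ABCC3, or MRP3, carries bile salts and glucuronides across the basolateral membrane, and its level divided the sublines. It read 8.25 in PazR and 8.18 in SunR, against 7.22 and 7.38 in parental cells in pazopanib and sunitinib, which is 2.04-fold and 1.74-fold higher on single arrays. DasR read 6.90, the lowest of the 8 arrays, against 7.08 in parental cells in dasatinib. The untreated replicates read 7.04 and 7.39. ABCC3 exceeded the 99th percentile of the olfactory receptor probes on only 4 of the 8 arrays. DasR, parental cells in dasatinib and in pazopanib and untreated replicate 1 lay below that stricter limit. The low readings, and the fold differences taken from them, thus rest on values near background. Over the 3 sublines the mean was 7.78 ± 0.76 (SD, n = 3), against 7.23 ± 0.15 (SD, n = 3) in treated parental cells, and the difference of 0.55 (SE 0.29, 95% interval -0.09 to 1.19) did not pass (limma, adjusted p = 0.322). Without DasR the difference was 0.99 and passed (adjusted p = 0.00555), and against untreated cells it was 1.00 (adjusted p = 0.0220), against 0.56 (adjusted p = 0.743) with DasR. These values without DasR are read from the 2 sublines that read high, so their agreement follows from the choice of array and no support is drawn from these p-values. Without any other single array ABCC3 did not pass against treated parental cells (limma, adjusted p = 0.320 to 0.655). The difference between DasR and the others was not tested. ABCC3 lies on the long arm of chromosome 17. Among 221 named genes above background from ABCC3 to the end of that arm, the median of DasR minus the mean of PazR and SunR was 0.39, against 0.01 over 11410 genes of all chromosomes, while ABCC3 itself stood at -1.32. Of the resistant cells, the paper reports DNA gains on part of this arm in DasR only. Whether the gained part holds ABCC3 was not examined, and a link to these levels was not tested.

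ABCC4, or MRP4, exports cyclic nucleotides and nucleotide analogs. Its probe ILMN_2194009 read 8.004 in DasR, 8.27 in PazR and 7.95 in SunR, against 7.82, 7.85 and 8.30 in parental cells in dasatinib, pazopanib and sunitinib, and 8.27 and 8.29 in the untreated replicates. The probe ILMN_1788457 read 7.97, 8.10 and 8.09 in DasR, PazR and SunR, against 8.10, 7.72 and 8.24 in the treated parental cells in the same order of drugs and 8.29 and 8.13 in the untreated replicates. By both probes the sublines overlapped with treated parental cells and lay below the untreated arrays, although by ILMN_2194009 PazR and untreated replicate 1 were the same to 2 decimals. The differences from untreated cells were -0.21 (95% interval -0.65 to 0.23) and -0.16 (95% interval -0.58 to 0.26), and neither passed (limma, adjusted p = 0.869 and 0.898). Against treated parental cells they were 0.08 (95% interval -0.32 to 0.48) and 0.03 (95% interval -0.35 to 0.41). ABCC4 is on chromosome 13, where the median of DasR minus the mean of PazR and SunR was -0.20 over 188 named genes above background. For ABCC4 this difference was -0.11 and -0.12 by the 2 probes. The paper reports loss of the whole long arm of this chromosome in DasR only, and a link to these levels was not tested.

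ABCC5, or MRP5, is another exporter of cyclic nucleotides, and its 3 probes did not read alike. By ILMN_1651964 the sublines DasR, PazR and SunR read 8.89, 8.96 and 8.57, against 8.92, 9.09 and 8.79 in parental cells in dasatinib, pazopanib and sunitinib and 8.97 and 8.46 in untreated replicates 1 and 2. By ILMN_1706531 they read 8.86, 8.24 and 8.26, against 8.38, 8.20 and 8.51 in treated parental cells and 8.33 and 8.35 in the untreated replicates, so that DasR was the highest of the 8 arrays by this probe and not by the other. The differences between sublines and treated parental cells were -0.13 (95% interval -0.57 to 0.32) and 0.09 (95% interval -0.37 to 0.55), with limma adjusted p = 0.786 and 0.859. The probe ILMN_2302358 is annotated to the same RefSeq transcript as ILMN_1651964, yet it read 6.31 to 6.67 and was above background on no array, while ILMN_1706531 is annotated to another transcript. The untreated replicates were 0.51 apart by ILMN_1651964, more than any mean difference of this probe between groups.

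ABCA2 was the transporter that fell in the sublines relative to treated parental cells. Its brighter probe (ILMN_1747627) read 7.28 in DasR, 7.48 in PazR and 7.48 in SunR, against 9.48, 9.42 and 8.004 in parental cells in dasatinib, pazopanib and sunitinib, and 7.33 and 7.81 in untreated replicates 1 and 2. No subline reached the lowest treated parental array, and the sublines lay within or just below the range of the untreated pair. The sublines averaged 7.41 ± 0.12 (SD, n = 3) and treated parental cells 8.97 ± 0.83 (SD, n = 3), a difference of -1.55 (SE 0.33, 95% interval -2.28 to -0.83), or 2.93-fold (limma, adjusted p = 0.0193). Against untreated cells, at 7.57 ± 0.34 (SD, n = 2), the sublines differed by -0.15 (95% interval -0.92 to 0.62, adjusted p = 0.957). The order of the conditions was thus parental cells in dasatinib and in pazopanib, 0.06 apart, then parental cells in sunitinib, the untreated cells and the sublines, and the difference between these last 2 groups was within their spread.

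The high ABCA2 levels were those of parental cells in dasatinib and pazopanib. Compared with the mean of untreated cells, ABCA2 was 3.76-fold higher in parental cells in dasatinib, 3.61-fold in pazopanib and 1.35-fold in sunitinib, on single arrays. Over the 3 drugs the difference from untreated cells was 1.40 (SE 0.36, 95% interval 0.63 to 2.17) and did not pass (limma, adjusted p = 0.157), and without the parental array in sunitinib it was 1.88 and passed (adjusted p = 0.00458). Between sublines and treated parental cells the call was lost if parental cells in dasatinib (adjusted p = 0.0850), parental cells in pazopanib (0.0966), DasR (0.0537) or PazR (0.0615) were left out, and it held without SunR (0.0314) or without the parental array in sunitinib (0.000360, at a difference of -2.03). The parental array in sunitinib was the lowest of the treated parental arrays. The p-values without it, against untreated cells and against the sublines, follow from the choice of array, and no support is drawn from them. The untreated arrays fall on different sides of the division between sublines and treated parental cells in ribosomal RNA signal. A probe of RNA28SN5 (ILMN_3251587) read 8.61 to 9.35 in the sublines, 12.44 to 12.55 in treated parental cells, 8.35 in untreated replicate 1 and 11.84 in untreated replicate 2. A second RNA28SN5 probe (ILMN_1733559) separated them less, at 9.73 to 10.16, 10.97 to 11.77, 9.52 and 10.69 in the same order. A probe of RNA18SN5 (ILMN_3243593) read 8.68 to 9.45, 11.40 to 12.11, 8.77 and 11.30. The part of this signal in the result was not tested. ABCA2 differed by -0.48 between untreated replicates 1 and 2. With a term in limma for these 2 sets of arrays (the sublines and untreated replicate 1 in one, the other arrays in the other), chosen after seeing the data, ABCA2 stood at -1.08 (SE 0.65, adjusted p = 0.973), while 1 of 48107 probes passed. The term separates all sublines from all treated parental arrays, so its size comes from the untreated pair alone. It therefore cannot decide what part the array sets have, and nothing is read from the lost call. The second ABCA2 probe (ILMN_1687636), annotated to the same RefSeq transcript, read 6.47 to 6.60 on all 8 arrays, below background, and its correlation with the first was -0.10 over the 8 arrays, so the result rests on 1 probe.

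**Figure D2:**
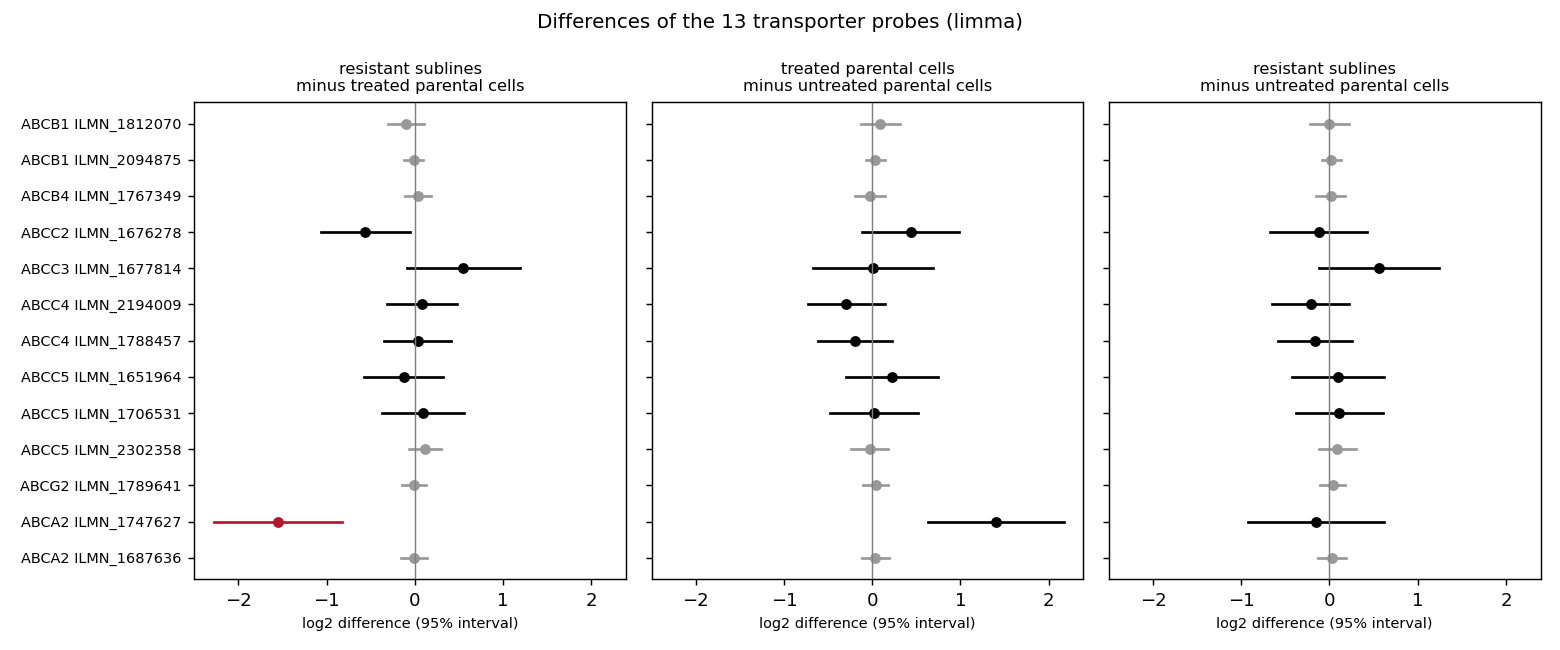
Log2 difference (horizontal axis) with its 95% interval from limma for each of the 13 probes in the 3 comparisons. Red marks an adjusted p under 0.05, black the other probes above background on all 8 arrays and gray the rest. ABCA2 at -1.55 is the only red point.

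The genes whose levels over the 8 arrays followed ABCA2 most closely, among 15303 probes above background on at least 4 arrays, were MLF2 (Pearson r = 0.996), CDC42BPB (0.996), a kinase that acts downstream of the GTPase CDC42, and FAT1 (0.994), an atypical cadherin. These coefficients describe 8 arrays that share cells and drugs, and no test was made of them. CDC42BPB read 8.18, 8.18 and 8.32 in DasR, PazR and SunR, against 9.82, 9.78 and 8.68 in parental cells in dasatinib, pazopanib and sunitinib and 8.03 and 8.48 in untreated replicates 1 and 2. The high arrays were those of ABCA2, namely parental cells in dasatinib and pazopanib, which follows from choosing genes by this likeness.

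ABCA2 and ABCC2 were the 2 transporters whose subline arrays all lay below the treated parental arrays, as was so for 13% of all probes. Their promoters differ in base composition. RefSeq promoter entries (GRCh38.p14, 250 bases before to 50 after a transcript start) were found for 7 of the 10 genes, 14 entries in all. They are shown in lower case, 5′ to 3′ on the strand of the gene, with capitals at each GC box (GGGCGG on either strand, the letters bound by SP1-type factors). The entries are those of ABCA2 on the minus strand (chr9:137028188-137028487 and chr9:137028873-137029172) and of ABCC2 on the plus strand (chr10:99782390-99782689).
ABCA2, first entry: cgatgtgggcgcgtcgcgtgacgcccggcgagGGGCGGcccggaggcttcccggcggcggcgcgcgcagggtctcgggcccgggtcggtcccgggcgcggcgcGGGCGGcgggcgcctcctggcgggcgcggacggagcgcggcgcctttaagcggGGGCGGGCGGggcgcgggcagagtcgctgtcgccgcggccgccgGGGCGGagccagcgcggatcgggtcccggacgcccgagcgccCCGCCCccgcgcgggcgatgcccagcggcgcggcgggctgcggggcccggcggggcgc
ABCA2, second entry: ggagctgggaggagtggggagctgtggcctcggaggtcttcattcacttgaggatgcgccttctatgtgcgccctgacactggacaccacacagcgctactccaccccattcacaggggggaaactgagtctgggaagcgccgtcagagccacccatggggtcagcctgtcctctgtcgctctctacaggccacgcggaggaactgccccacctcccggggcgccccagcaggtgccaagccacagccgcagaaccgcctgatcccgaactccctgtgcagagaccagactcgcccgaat
ABCC2: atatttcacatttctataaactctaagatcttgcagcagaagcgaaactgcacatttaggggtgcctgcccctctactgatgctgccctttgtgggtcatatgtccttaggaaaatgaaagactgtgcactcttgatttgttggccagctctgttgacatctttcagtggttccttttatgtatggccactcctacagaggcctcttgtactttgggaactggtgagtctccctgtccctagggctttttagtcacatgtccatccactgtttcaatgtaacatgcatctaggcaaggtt

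The first ABCA2 entry is 86.7% G and C and holds 6 GC boxes, some of which overlap, the second is 64.3% G and C with none, and that of ABCC2 is 45.0% G and C with none. A GC box stands in 45.0% of the 35116 promoters of the same length. Of 3 further motifs searched on both strands, the antioxidant response element (TGACNNNGC, in 13.3% of all promoters) had 1 match in the second ABCA2 entry, and neither this motif nor the CCAAT box (CCAAT, 34.6%) nor the E box (CACGTG, 7.3%) had a match in the ABCC2 entry. The entry of ABCC4 and 1 of the 5 entries of ABCG2 also had 1 match each to the antioxidant response element. These matches describe letters, and which start A204 cells use was not measured.

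Over the set, 1 of 13 probes passed between sublines and treated parental cells (limma, adjusted p under 0.05), or 7.69%, where 6.04% of all 48107 probes passed. The share is near that background, with 0 of 13 higher and 1 lower, where 2.71% of all probes passed higher and 3.33% lower. The groups did not overlap for 2 of 13 probes (ABCC2 and ABCA2, both lower), where 13% of all probes lay lower in this way. In one direction or the other 25.6% of all probes did not overlap. Between treated parental and untreated cells 0 of 13 passed (limma), where 0.00416% of all probes did. At an unadjusted p under 0.05 there was 1 of 13 (ABCA2), against 5962 of all 48107 probes. The probes of ABCC2 and ABCA2 were higher on every treated array than on both untreated arrays, where 14.1% of all probes were so. In one direction or the other 28.7% of all probes did not overlap. Between sublines and untreated cells 0 of 13 passed (limma), where 0.276% of all probes did, 0.158% higher and 0.118% lower. At an unadjusted p under 0.05 there were 0 of 13, against 3494 of all 48107 probes. For 2 probes, both of ABCC4, all sublines lay below the untreated arrays, where 12.4% of all probes did so and 23.4% did not overlap in one direction or the other. The comparisons share arrays, so their values for a gene are not independent.

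By single drug, differences over 0.5 on the log2 scale between a subline and parental cells in the same drug were seen for 2 of 13 probes for dasatinib, both lower (ABCC2 and ABCA2), where 14.6% of all probes passed this size. For pazopanib 1 was higher (ABCC3) and the same 2 were lower, where 12.5% did, and for sunitinib likewise 1 was higher (ABCC3) and 2 were lower, where 11.7% did. ABCA2 was 0.217, 0.261 and 0.698 times the parental level in DasR, PazR and SunR. ABCC2 was 0.670, 0.681 and 0.682 times the parental level in the same sublines. ABCC3 was 0.886, 2.04 and 1.74 times the parental level. Set against the mean of untreated cells, parental cells in dasatinib and in pazopanib each had 2 probes higher by over 0.5 (ABCC2 and ABCA2), where 8.67% and 10.7% of all probes passed this size, and parental cells in sunitinib had 0, where 8.14% did. Each subline had 1 probe higher than untreated cells by this size, where 5.69% (DasR), 5.14% (PazR) and 9.41% (SunR) of all probes passed it, and this was ABCC5 (ILMN_1706531) in DasR and ABCC3 in PazR and SunR.

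**Figure D3:**
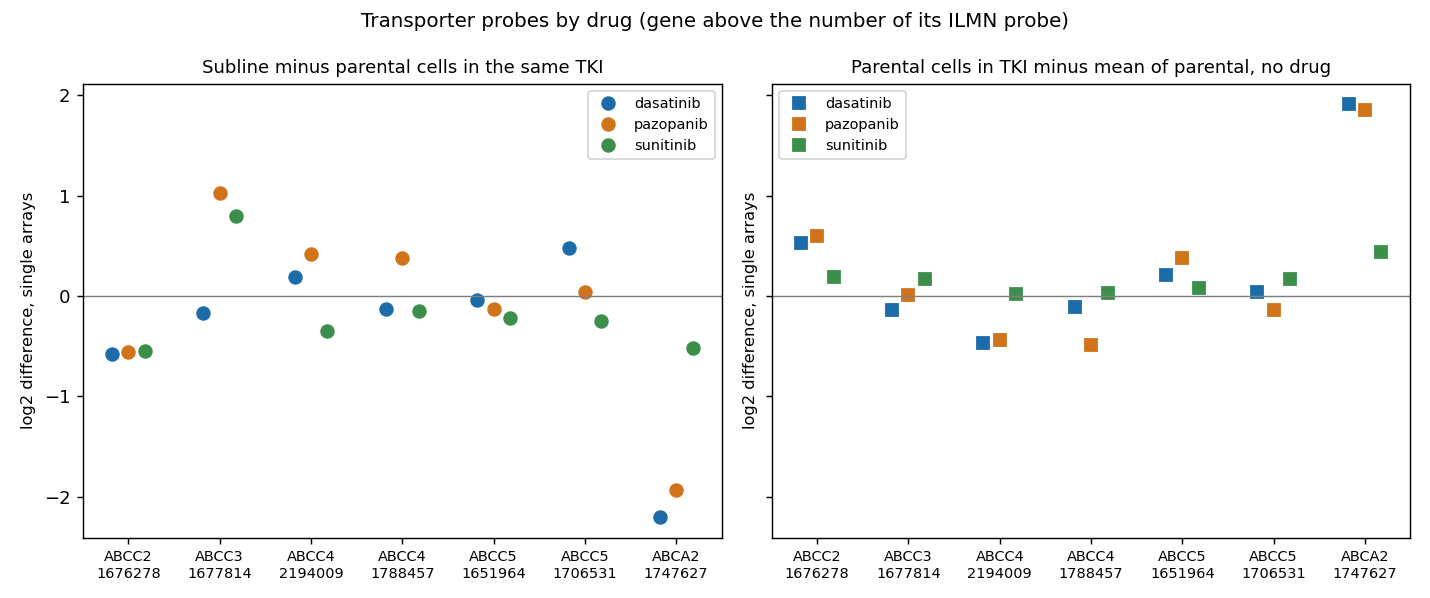
Log2 difference between single arrays (vertical axis) for the 7 probes above background on all 8 arrays, with the sublines minus parental cells in the same TKI on the left and parental cells in TKI minus the mean of untreated cells on the right, colored by drug. ABCC2 is at -0.58 to -0.55 for all 3 drugs on the left, while ABCA2 spans -2.20 to -0.52 and ABCC3 spans -0.17 to 1.03.

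Among the other ABC family genes 36 of 38 listed were measured, 20 of them above background on at least 4 arrays. By the brightest probe of each, 1 passed higher and 0 lower between sublines and treated parental cells, with a median difference of 0.05, against a median of 0.00 over all 20046 named genes, of which 7.33% passed. The gene that passed was ABCA3, which moves phospholipids into lamellar bodies in lung cells and into lysosomes. It read 8.84 in DasR, 8.61 in PazR and 8.84 in SunR, against 6.97, 6.74 and 7.88 in parental cells in dasatinib, pazopanib and sunitinib, and 7.55 and 7.57 in the untreated replicates. All 3 sublines lay above all other arrays, with a rise of 1.56 over treated parental cells (SE 0.26, limma adjusted p = 0.00559) that held without each array in turn (adjusted p up to 0.0409), while the difference of 1.20 from untreated cells did not pass (adjusted p = 0.139). With the term for the sets of arrays, whose size comes from the untreated pair alone, it stood at 1.58 (limma, adjusted p = 0.973).

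**Figure D4:**
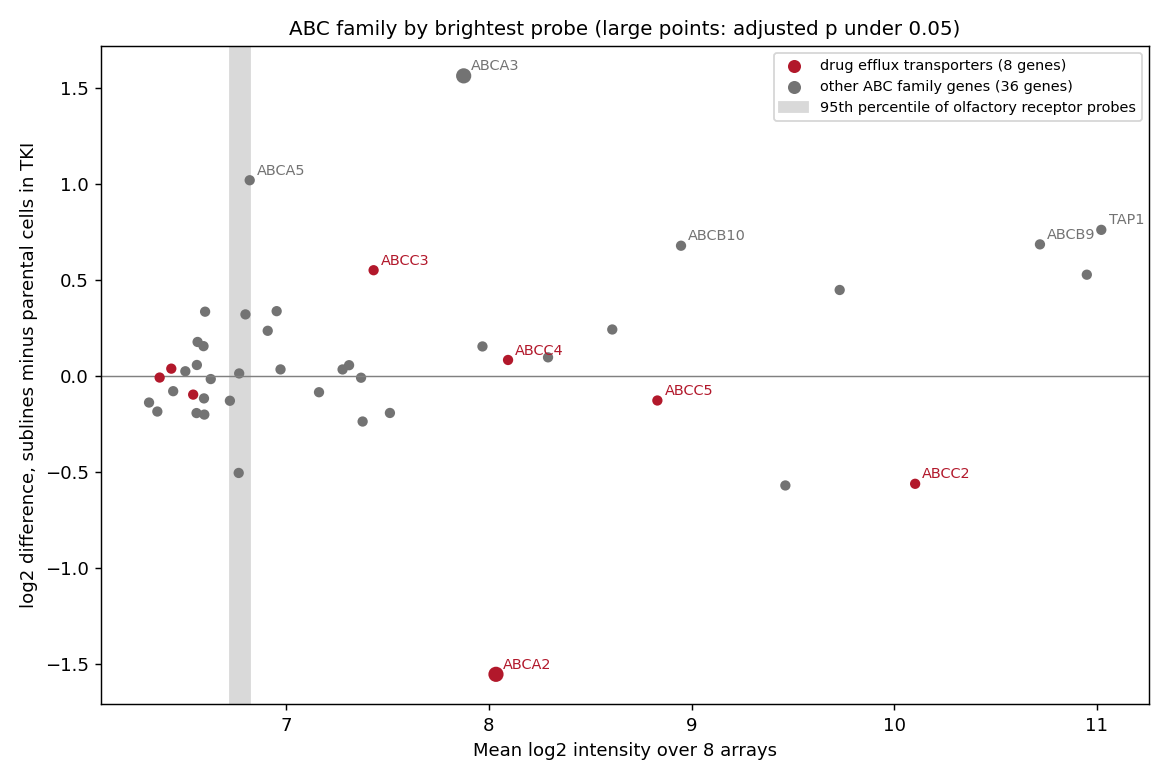
Log2 difference between sublines and treated parental cells (vertical axis) against mean log2 intensity over 8 arrays (horizontal axis) for the brightest probe of each ABC family gene, with the drug efflux transporters in red and the others in gray. ABCA3 at 1.56 and ABCA2 at -1.55 are the large points, which mark an adjusted p under 0.05.

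Of 18 measured transcription factors known to act on efflux genes, 14 were above background on at least 4 arrays, and 0 passed in any of the 3 comparisons (limma). At an unadjusted p under 0.05 there were 7 between sublines and treated parental cells, 2 between treated parental and untreated cells and 4 between sublines and untreated cells. Of 11 measured membrane anchors and partners of the pumps, such as ezrin (EZR) and the major vault protein (MVP), 0 passed either (limma), with 4, 0 and 1 at an unadjusted p under 0.05 in these comparisons. Over all 20046 named genes 7.33%, 0.00499% and 0.479% passed in the same 3 comparisons (limma). At an unadjusted p under 0.05 the shares of all named genes were 24.9%, 15.4% and 8.62%. Lists of this size would hold few calls or none at the background share, and nothing is read from their counts.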

How the data were processed

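Total RNA from 8 A204 samples was labeled with biotin and read on Illumina HumanHT-12 arrays, 1 per sample. Log2 intensity is deposited for 48107 probes, which the authors preprocessed, transformed to log2 and quantile normalized with beadarray. How background was treated is not given in the sources used here, and arrays have no read depth, so their number limits the precision. Probes were named through the platform annotation and current RefSeq symbols, with 1 symbol for 30113 probes, several for 8 and none for 17986.

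Tests were run per probe over the whole table with limma 3.58.1 in R 4.3.3 (lmFit, eBayes with an intensity trend) and Benjamini-Hochberg adjustment, with a threshold of 0.05. The sublines were compared with treated parental cells on these 6 arrays, and both groups in TKI with untreated cells in 1 fit of 8 arrays. The code was tested on simulated data. Arrays of the same drug deviated together from their group means (r = 0.126, 0.184 and 0.199 for dasatinib, pazopanib and sunitinib, against -0.16 to 0.05 for other pairs), so the drug was tried as a block. Members, lists and tests were chosen with earlier results of these data known. Values per array are given for members above background and for probes that passed, and of the other lists up to 4 called genes of smallest p are named. Alternatives changed the variance model, filter, normalization, offset, arrays and test.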

Additional observations from a re-analysis of the deposited data

Results flagged for a closer look

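With 1 array for each drug and cell, 4 probes of 3 transporters differed from parental cells in opposite directions between drugs, and these differences between drugs were not tested. ABCC3 (ILMN_1677814) stood at -0.17 in DasR, 1.03 in PazR and 0.80 in SunR, each minus parental cells in the same drug on the log2 scale. ABCC4 stood at 0.19, 0.42 and -0.35 by ILMN_2194009 and at -0.13, 0.37 and -0.15 by ILMN_1788457 for DasR, PazR and SunR, so that the sign for DasR depended on the probe. ABCC5 (ILMN_1706531) stood at 0.48, 0.038 and -0.25 in the same sublines.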

How the results depend on the processing

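Between sublines and treated parental cells, 1 transporter probe (ABCA2) passed, and 0 passed without an intensity trend (ABCA2 adjusted p = 0.0684), with Student's t-test after adjustment (0.248), without both pazopanib arrays (0.223) or with the term for the array sets. Student's t-test without adjustment passed 2 (ABCA2 and ABCC2), and without both dasatinib arrays the 1 that passed in limma was ABCC3 (adjusted p = 0.0469) in place of ABCA2. Without single arrays 0 to 1 passed, and without DasR the 1 was ABCC3. The difference in ABCA2 ran from -2.07 to -1.08 over 21 alternatives, of which 12 passed. By Signal2Noise, the measure by which the paper ranked genes on these arrays, ABCA2 ranked 2649 and ABCC2 3832 from the lowest of 48107. With the drug as a block ABCA2 kept its call (adjusted p = 0.0129), as 3713 probes passed. No analysis paired by replicate was possible because the labels number only the untreated arrays.

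Over all probes, 2906 passed in this comparison, against 1436 of 20046 with 1 probe per gene, 780, 333 and 4897 without both arrays of dasatinib, pazopanib and sunitinib, 39 with the adjusted and 8271 with the unadjusted Student's t-test, 1 with the array sets and 1032 to 3890 without single arrays. Between treated parental and untreated cells 2 passed, and 0 passed without a trend or in the brighter 50% of probes and 0 to 580 without single arrays. Of the transporters 0 to 1 passed without single arrays (ABCA2, without parental cells in sunitinib). Between sublines and untreated cells 133 passed, 58 without a trend, 67 with 2 groups in the fit and 35 to 446 without single arrays, and 0 to 1 transporters passed without single arrays (ABCC3, without DasR).

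Signs changed only for values that passed nowhere: between sublines and treated parental cells ABCC4 turned to -0.084 and -0.14 without both pazopanib arrays, and its probe ILMN_1788457 to -0.13 with the array sets, while ABCC5 (ILMN_1706531) turned to -0.10 without both dasatinib arrays. Without single arrays these ran from -0.013 to 0.24 and -0.12 to 0.14 for ABCC4 and from -0.11 to 0.20 for ABCC5. Against untreated cells, sublines ran from -0.39 to 0.084 for ABCA2 and, for ABCC5, from -0.16 to 0.35 and -0.090 to 0.22, and treated parental cells ran from -0.16 to 0.19 for ABCC3 and, for ABCC5, from -0.031 to 0.47 and -0.053 to 0.10. The cause was not tested. With the 99th percentile as the background limit, or the SMARCB1 probe, 5 genes in place of 6 were above background on at least 1 array.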

Other observations

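Of 27 genes of glutathione synthesis and conjugation, 4 passed higher and 0 lower between sublines and treated parental cells (limma), or 14.8%, where 7.33% of all named genes passed, with a median difference of -0.03. They were GCLC (0.70) and GCLM (1.05), the subunits of the enzyme that limits glutathione synthesis, GSR (0.84), which regenerates glutathione, and GSTP1 (0.57), a glutathione transferase. GSTP1 read 13.37 to 13.59 in the sublines, 12.75 to 13.02 in treated parental cells and 13.38 to 13.45 in untreated cells. Against untreated cells the sublines differed by 0.56 for GCLC, 0.68 for GCLM, 0.46 for GSR and 0.05 for GSTP1. None of these differences passed (limma, adjusted p = 0.521, 0.576, 0.711 and 0.957). Each of the 4 lost its call without at least 2 single arrays (adjusted p up to 0.156), among them in every case the parental array in pazopanib.

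Of 29 carriers of drug uptake and exchange, 2 passed higher and 0 lower, or 6.90%, with a median of -0.04, which is close to the 7.33% of all named genes and no result about the carriers as a group. SLC47A1, an exporter of organic cations, rose by 1.05 and SLCO4A1, an uptake carrier of organic anions, by 0.93 (limma, adjusted p = 0.0284 and 0.00895). SLC47A1 lost its call without either of the parental arrays in dasatinib and pazopanib, PazR or SunR (adjusted p up to 0.143), and SLCO4A1 without the parental array in pazopanib (0.0621). Of 10 enzymes that metabolize the TKIs, 1 passed, where 7.33% of all named genes did, and this was POR, the electron donor of cytochrome P450 enzymes. POR stood 0.65 lower in the sublines than in treated parental cells (limma, adjusted p = 0.0343). This call was lost when any 1 of the other 5 arrays than parental cells in sunitinib was left out (adjusted p up to 0.152). Against untreated cells the difference in POR was -0.15 and did not pass (limma, adjusted p = 0.899). With the term for the array sets none of these 7 genes passed (limma, adjusted p = 0.973 each), as 1 of all 48107 probes did. The size of this term comes from the untreated pair alone, so nothing is read from the lost calls. The differences of the 7 genes then stood at 1.09 for GCLM, 0.65 for GSTP1, 0.97 for SLCO4A1, 0.84 for SLC47A1 and 0.49 for GCLC, and at 0.37 for GSR and -0.35 for POR.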
